A study of Mus musculus with 12 samples.

Results

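The genes described here are the protein-coding mouse zinc finger genes whose symbol is Zfp followed by a number of at least 600 and below 1000. They were chosen by symbol, from the deposited gene identifiers named through the GENCODE annotation, with earlier results of these data known. Each also needed at least 3 CPM (reads of a gene per 1e6 reads of its library) in at least 3 of the 12 libraries. Of 171 such genes in the table, 149 passed (members), against 14731 genes of all kinds among 51467. A further 22 did not pass, 10 of them with 0 reads in all 12 libraries.

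The libraries came from naive mouse embryonic stem cells (ESCs), grown in serum with LIF and the 2i inhibitors PD0325901 and CHIR99021, and from epiblast-like cells (EpiLCs) made from them and collected about 56 h after LIF and 2i were withdrawn. All cultures, ESCs included, were given 500 µM 4-thiouridine (4sU), a uridine analogue, for 30 min. Each cell type was sequenced as total RNA and as purified 4sU RNA (nascent RNA), 3 libraries each. The labels name no cell line or genotype. The methods of the study list for differentiation a single line, V6.5 mouse ESCs with an mCherry reporter of the miR-290 and a GFP reporter of the miR-302 microRNA cluster, and no knockout was part of these groups.

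Zinc finger proteins of this kind bind DNA through tandem C2H2 fingers, each a short loop held by a zinc ion. Many also carry a KRAB domain, which binds the corepressor TRIM28 and through it brings the histone methyltransferase SETDB1 to chromatin, and in pluripotent cells such proteins are known for silencing retrotransposons. KRAB zinc finger genes multiplied by local duplication, so they lie in clusters of close paralogs, and the number in a mouse Zfp symbol is a catalogue number, not a family.

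Gene counts summed to between 3097693 and 5385644 reads per 4sU library and between 9300845 and 21975684 per total library. The members took 0.743% to 1.04% of the 4sU reads and 0.449% to 0.519% of the total reads. Both ESC libraries numbered 3 stood apart from the other ESC libraries on the third principal component, which held 2.26% of the variance, and results that rest on them are given with and without them. All 10 naive markers fell from ESCs to EpiLCs and 5 of 6 primed markers rose. The 8 fibroblast markers summed to between 6.91 and 20 CPM in each library and the 7 primitive endoderm markers to 3.06 to 15.7 CPM in ESCs and 16.8 to 41.3 CPM in EpiLCs. None of these markers was at 0 in all 12 libraries, and their part in the results was not tested.

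In translated coding sequences the C2H2 finger pattern was found in 146 of the 149 members, with a median of 11 fingers and up to 33 in Zfp619. A KRAB-type motif near the start of the protein was found in 81 members (54.4%), against 1.58% of the protein-coding genes that passed the filter. The motif search misses divergent KRAB domains, so the other 68 members are only those in which the motif was not found. Zfp703, Zfp750 and Zfp839 matched no finger pattern. The members were AT-rich, with a median transcript GC content of 43.0% against 50.4% for protein-coding genes, and the 81 with the motif were lowest (40.6%).

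The first comparison asked how mRNA levels of these genes differed between ESCs and EpiLCs. More members fell than rose, but among members with little sequence shared with other genes the order depended on whether a minimum size was asked for. At a limma-voom adjusted p below 0.05 and an absolute log2 change above 1, 14 members (9.4%) rose and 28 (18.8%) fell, beside 16.3% and 11.2% of all 14731 genes tested. Without the 16 genes of the chromosome 4 cluster described below, 14 rose and 16 fell of 133. Among the 114 members with at most 20% of their sequence windows shared with another gene 14 rose and 12 fell. With no size limit 36 (31.6%) of the 114 were higher and 41 (36%) lower, beside 31.4% and 32.1% of all genes. The 14 rises include Zfp608, Zfp618, Zfp677, Zfp711 and Zfp853, which passed the level filter only through EpiLC libraries. The median log2 change was -0.17 over the members and 0.02 over all genes. In 70 members every EpiLC total library was below every ESC total library, and in 38 it was above, which is 47.0% and 25.5% of members beside 35.1% and 33.5% of all genes. In bulk RNA, fewer cells of a type and less RNA per cell cannot be told apart.

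The members that fell were mostly those with the KRAB-type motif. Of the 81, 26 (32.1%) fell and 2 (2.47%) rose, with a median of -0.55. The chromosome 4 cluster described below held 12 of these 26 falls, among them Zfp987, which passed the level filter only through ESC libraries. Of the 68 without it, 2 (2.94%) fell and 12 (17.6%) rose, with a median of 0.22. Of all genes 11.2% fell and 16.3% rose. Among those 12 rises, Zfp608, Zfp618, Zfp711 and Zfp853 passed the level filter only through EpiLC libraries. Among the Zfp genes numbered under 600, of 59 with the motif 12 (20.3%) fell and 2 (3.39%) rose. Of 122 without it 8 (6.56%) fell and 9 (7.38%) rose. The difference between the classes was not tested, since members of a class share sequence and position. With no size limit 39 members were higher and 65 lower in total RNA, beside 31.4% and 32.1% of all genes. Over 22 alternative settings the 81 genes gave 23 to 31 falls and 2 or 3 rises, and the 68 gave 2 to 4 falls and 10 to 15 rises.

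**Figure D1:**
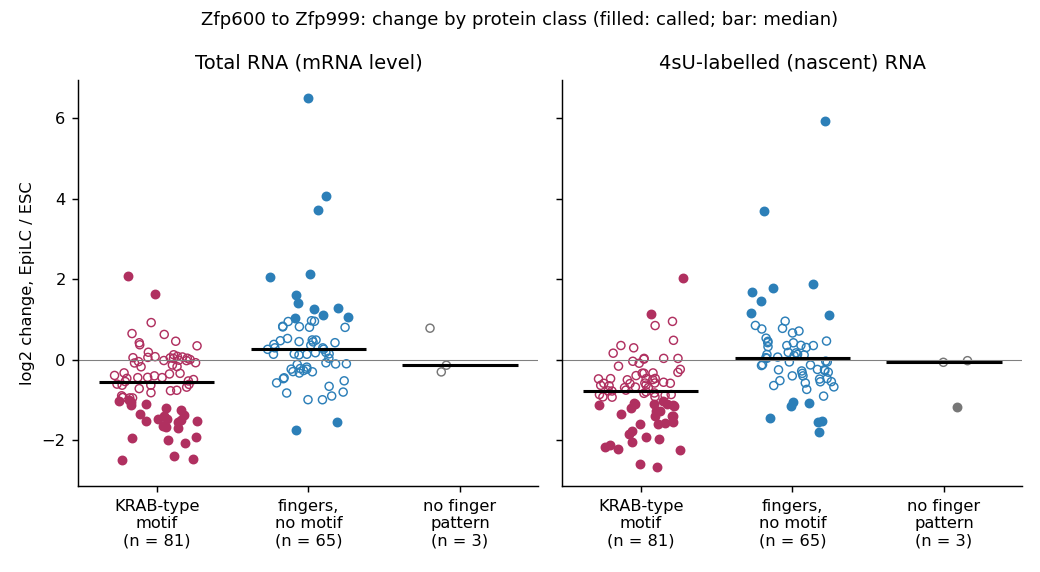
Log2 change from ESCs to EpiLCs (y axis) of each of the 149 members in total RNA (left) and 4sU RNA (right), grouped on the x axis by what was found in the protein; filled points passed adjusted p below 0.05 and absolute log2 change above 1, and bars are medians. The 81 genes with a KRAB-type motif centre on -0.55 in total RNA, and the 65 with fingers but no motif on 0.25.

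Zfp608, on chromosome 18, had the highest rise of the members. Its total RNA was 0.579, 0.503 and 0.590 CPM in the 3 ESC libraries and 54.2, 47.3 and 56.7 CPM in the 3 EpiLC libraries. The groups were far apart, with a log2 change of 6.50 ± 0.28 (SE, n = 3 libraries per group, limma-voom adjusted p = 1.2e-10). Its paralog Zfp609, known as a partner of the cohesin loader in neural progenitors, rose from 21.9, 19.6 and 32.8 CPM to 61.5, 53.4 and 58.0 CPM (log2 change 1.29 ± 0.15). No ESC library reached the lowest EpiLC library for either gene.

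Zfp618, reported to bind the chromatin protein UHRF2, was at 2.38, 2.32 and 1.08 CPM in ESCs and at 32.2, 33.2 and 34.3 CPM in EpiLCs, a log2 change of 4.06 ± 0.21. Zfp853 was at 0.116, 0.453 and 0.492 CPM in ESCs and at 3.79, 4.17 and 4.67 CPM in EpiLCs (3.72 ± 0.45), the ESC values resting on 2, 9 and 5 reads. In both genes the cell types were separated with no overlap. The X-linked Zfp711, a disease gene for intellectual disability, rose by less, from 1.91, 1.96 and 2.65 CPM to 8.48, 6.25 and 5.07 CPM (1.61 ± 0.24).

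The other rises ran from 1.03 (Zfp800) to 2.12 (Zfp651) on the log2 scale. They included Zfp629 (2.06 ± 0.22), Zfp697 (1.40 ± 0.22), Zfp768 (1.25 ± 0.22), Zfp612 (1.06 ± 0.20) and Zfp644 (1.10 ± 0.11), whose product works with the histone methyltransferases EHMT1 and EHMT2. Only Zfp677 (2.07 ± 0.22) and Zfp946 (1.63 ± 0.13) among the 14 carried the KRAB-type motif. The call of Zfp768 rested on ESC total replicate 3, without which its log2 change was 0.99. The calls of Zfp800 and Zfp612 were lost under 8 and 7 of the 22 alternatives, with log2 changes from 0.90 upwards.

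Zfp608, Zfp618, Zfp677, Zfp711 and Zfp853 passed the level filter only through their EpiLC libraries, so a rise was built into their passing. Zfp987 and Zfp993 passed only through ESC libraries, so a fall was built into theirs. Among the 142 members that reached 3 CPM in at least 3 libraries of each cell type, 9 rose and 27 fell. Of all genes tested 16.3% rose and 11.2% fell, but those were not held to this stricter filter. Just inside the filter, the third highest library of Zfp987, Zfp993 and Zfp853 held 3.32, 3.54 and 3.66 CPM. Just outside, it held 2.97 CPM in Zfp972 and 1.61 CPM in Zfp983. The reads of Zfp972 were 21, 16 and 21 in ESC 4sU and 1, 3 and 2 in EpiLC 4sU.

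Zfp600 had the largest fall. Its total RNA was at 27.1, 28.9 and 25.5 CPM in ESCs and at 4.35, 4.64 and 5.27 CPM in EpiLCs, a log2 change of -2.51 ± 0.15 (adjusted p = 4.5e-09). Zfp977 went from 54.5, 57.3 and 53.4 CPM to 8.81, 12 and 9.14 CPM (-2.46 ± 0.14). For both genes the ESC libraries lay well above the EpiLC libraries.

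Zfp819, a KRAB protein reported to repress retrotransposons in pluripotent cells, was at 38.3, 41.7 and 24.9 CPM in ESCs and at 6.36, 7.01 and 6.36 CPM in EpiLCs (-2.40 ± 0.28). Zfp931 followed at -2.06 ± 0.17, Zfp870 at -1.99 ± 0.13, Zfp975 at -1.70 ± 0.19 and Zfp960 at -1.68 ± 0.26. Zfp710 (-1.75 ± 0.08) and Zfp773 (-1.55) were the 2 falling members without the KRAB-type motif. Zfp961, a KRAB protein reported to recognise the tRNA primer site of retroviruses, fell from 109, 112 and 166 CPM to 59.1, 55.4 and 65.6 CPM (-1.06 ± 0.15). Its change was -0.88 without ESC total replicate 3, which ended the call.

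Several well studied members did not pass the test for mRNA. Zfp809, the KRAB protein that silences murine leukemia virus in ESCs through its primer binding site, was at 38.9, 39.7 and 41.8 CPM in ESCs and at 28.8, 32.3 and 29.5 CPM in EpiLCs (-0.40 ± 0.09, adjusted p = 0.0015, below the size needed). Its ESC and EpiLC libraries did not overlap. Zfp932, a KRAB repressor of endogenous retroviruses, had overlapping libraries (0.04 ± 0.13, adjusted p = 0.79), and 45.2% of its 50-base windows also occur in its paralog Gm15446. Zfp706, reported to restrain exit from the ESC state, changed by -0.33 ± 0.10, and Zfp638, an RNA- and DNA-binding protein that recruits silencing to unintegrated retroviral DNA, by -0.12 ± 0.14.

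Zfp652, a repressor that works with CBFA2T3, had a log2 change of 0.44 ± 0.12. Zfp655, a VAV-interacting protein, had -0.58 ± 0.11. Zfp668, linked to DNA repair, had 0.82 ± 0.13, and Zfp687 of the ZMYND8 complex had 0.36 ± 0.09. Each of these 4 values passed adjusted p below 0.05 but not the size. Zfp703, a Groucho-binding corepressor, stayed under 1 CPM in all 6 total libraries (0.78 ± 0.58, adjusted p = 0.25).

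The genomic positions of the members were then compared. Members were linked into a cluster where neighbouring starts lay within 1 Mb, with at least 3 members. This gave 15 clusters with 93 members, and left 56 outside. Of the 93 clustered members 24 fell and 4 rose in total RNA, and of the 56 others 4 fell and 10 rose. The chromosome 4 cluster held 12 of the 24 falls, and the 77 members of the other clusters gave 12 falls and 4 rises with a median of -0.10, beside 11.2% falls and 16.3% rises over all genes. The SD of the log2 changes within a cluster had a median of 0.63 over the 15 clusters. It reached 1.159 in the chromosome 7 cluster from Zfp788 to Zfp819, beside 1.164 over all members. The SD over all members includes the large rises of Zfp608, Zfp618 and Zfp853, which lie outside the clusters. Whether neighbours changed together was not tested.

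**Figure D2:**
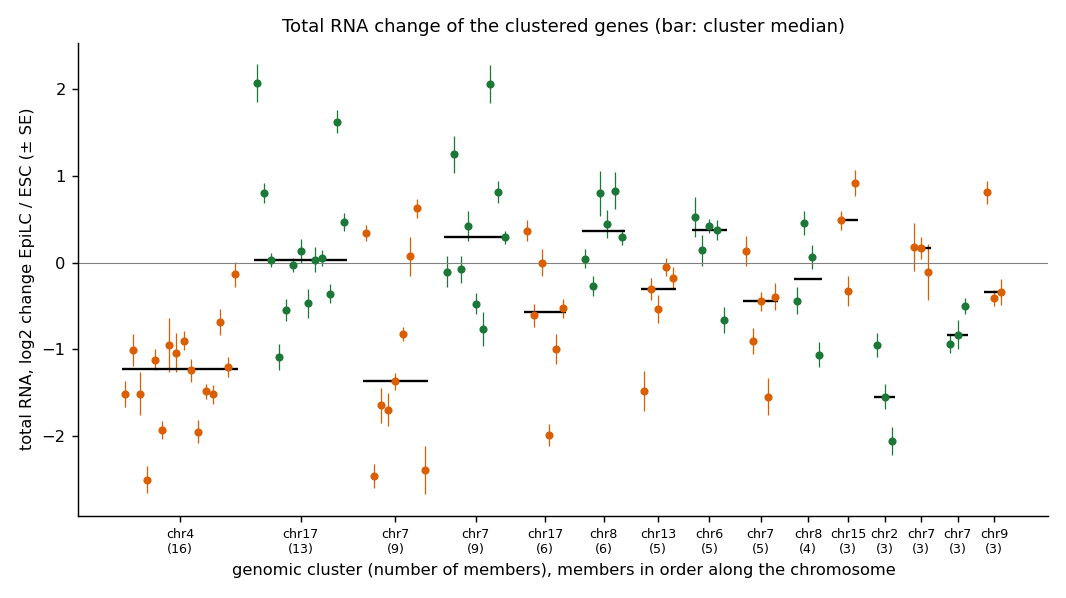
Log2 change in total RNA from ESCs to EpiLCs (y axis, ± SE) of the 93 members in the 15 genomic clusters, ordered along each chromosome, with the chromosome and number of members on the x axis and a bar at each cluster median. The 16 genes of the chromosome 4 cluster all lie below 0, while the chromosome 17 cluster of 13 spans -1.09 to 2.07.

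The largest cluster lay on chromosome 4 (chr4:145510759-147848366, mm10) and held 16 members from Zfp990 to Zfp933, all with the KRAB-type motif. A cluster of KRAB zinc finger genes in this part of chromosome 4 is known from deletion work in mice to restrain retrotransposons. All 16 had a log2 change below 0 in total RNA (48.9% of all genes did), from -2.51 to -0.13, with a median of -1.23. Of these 12 fell and none rose, where 11.2% and 16.3% of all genes did. Zfp987, among the 12, and Zfp993, not called, passed the level filter only through ESC libraries, so a fall was built into their passing. In 15 of the 16 every EpiLC total library was below every ESC total library, as in 35.1% of all genes. The summed total RNA of the cluster came to 1101 ± 70.0 CPM over the 3 ESC libraries (mean ± SD) and to 462 ± 34.3 CPM over the 3 EpiLC libraries, a level 2.38-fold lower. The 16 genes made up 19.4% ± 1.1 of the members' summed CPM in ESC total RNA and 9.73% ± 0.60 in EpiLC total RNA.

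Per length, 4 of the 5 highest members in ESC total RNA came from this cluster. Zfp979 was at 90.1 ± 12.1 CPM per kb (SD, n = 3), Zfp990 at 63.8 ± 3.8, Zfp985 at 56.8 ± 3.8 and Zfp978 at 45.1 ± 4.1, with Zfp961 at 42.9 ± 10.7. Zfp990 and Zfp985 differed by less than the sum of their SDs, as did Zfp978 and Zfp961. In EpiLCs the order per kb was Zfp979 (56.0 ± 4.6), Zfp664 (42.6 ± 1.5), Zfp644 (38.7 ± 0.8), Zfp740 (33.0 ± 0.5) and Zfp622 (30.7 ± 0.8), a ribosome maturation factor. Over all members the median was 6.30 CPM per kb in ESCs and 5.24 in EpiLCs.

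Within the cluster, Zfp981 went from 116, 125 and 114 CPM to 30.1, 31.5 and 31.5 CPM (-1.93 ± 0.10). Zfp978 went from 57.2, 61.1 and 50.9 CPM to 13.4, 15.8 and 14.4 CPM (-1.95 ± 0.13), and Zfp982 from 53.5, 57.9 and 58.8 CPM to 18.5, 21.7 and 20.2 CPM (-1.49 ± 0.09). Each of these ESC groups lay wholly above its EpiLC group. Zfp979, the most abundant, was at 251, 253 and 198 CPM in ESCs and at 132, 156 and 147 CPM in EpiLCs (-0.69 ± 0.15, not past the size threshold). Zfp933, at the distal end of the cluster, was at 17.1, 18.8 and 16 CPM in ESCs and at 17.1, 16.4 and 14.3 CPM in EpiLCs (-0.13 ± 0.14, adjusted p = 0.42), and was the one member whose libraries overlapped.

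**Figure D3:**
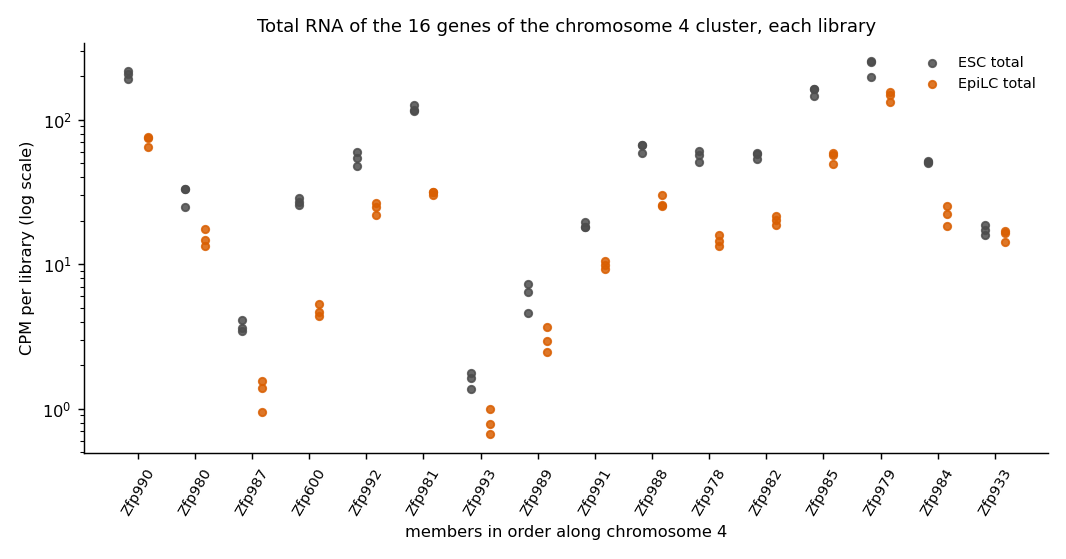
CPM (log scale, y axis) of the 16 members of the chromosome 4 cluster in each of the 3 ESC and 3 EpiLC total libraries, in chromosome order on the x axis. The ESC points lie above the EpiLC points for every gene but Zfp933.

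These genes are close copies, and a read that maps to more than one place was dropped by the authors. In 13 of the 16 more than 20% of the 50-base windows of the annotated transcripts occur in another annotated gene, up to 93.1% in Zfp987, so which copy the remaining reads represent is uncertain for them. The 3 with the fewest shared windows were Zfp933 (1.86%), Zfp982 (11.5%) and Zfp985 (15.7%), and Zfp982 and Zfp985 fell by 1.49 and 1.52 on the log2 scale. Over all 149 members the median share was 1.96%, and 35 members exceeded 20%. Of the 114 others 14 rose and 12 fell, against 0 and 16 of the 35, so 16 of the 28 falls were in genes that share much of their sequence.

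The promoters of the cluster are printed here because most of those found share a stretch that Zfp933 and Zfp987 do not have. Promoter sequences (RefSeq, GRCm38.p6, 250 bases before to 50 after a start) were found for 10 of the 16. The letters ATTGGGCGGG, which join a reversed CCAAT box to a GC box, occurred on either strand in 8 of these 10 and in 0.119% of the 32851 promoters in the table. The letters were taken from the Zfp982 promoter after the promoters and changes were seen. The first 3 sequences below are from falling genes, Zfp933 did not pass, and Zfp994 is a member of a chromosome 17 cluster with the same letters, which are in capitals. Coordinates are chr4:146156577-146156876 (+) for Zfp600, chr4:147492167-147492466 (+) for Zfp982, chr4:147809739-147810038 (-) for Zfp984, chr4:147848369-147848668 (-) for Zfp933 and chr17:22225565-22225864 (-) for Zfp994, each 5′ to 3′ on the gene's strand.
Zfp600: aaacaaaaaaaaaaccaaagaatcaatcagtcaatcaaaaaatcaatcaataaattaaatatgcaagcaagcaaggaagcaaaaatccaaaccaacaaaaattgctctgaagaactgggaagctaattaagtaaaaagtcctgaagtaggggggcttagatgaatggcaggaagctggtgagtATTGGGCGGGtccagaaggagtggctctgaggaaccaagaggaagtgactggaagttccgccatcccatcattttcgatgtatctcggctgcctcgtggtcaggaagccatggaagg
Zfp982: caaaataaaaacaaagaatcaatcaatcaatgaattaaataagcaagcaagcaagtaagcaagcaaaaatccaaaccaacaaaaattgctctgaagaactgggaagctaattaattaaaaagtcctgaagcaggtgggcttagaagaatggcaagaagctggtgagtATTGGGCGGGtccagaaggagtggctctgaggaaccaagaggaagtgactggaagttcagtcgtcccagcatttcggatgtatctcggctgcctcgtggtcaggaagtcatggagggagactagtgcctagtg
Zfp984: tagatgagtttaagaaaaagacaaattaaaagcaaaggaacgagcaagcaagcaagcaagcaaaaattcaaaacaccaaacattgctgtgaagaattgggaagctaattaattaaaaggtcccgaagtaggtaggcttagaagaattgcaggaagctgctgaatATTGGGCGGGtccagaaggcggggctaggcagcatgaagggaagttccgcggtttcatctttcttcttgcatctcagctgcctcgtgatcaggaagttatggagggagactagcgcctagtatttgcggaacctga
Zfp933: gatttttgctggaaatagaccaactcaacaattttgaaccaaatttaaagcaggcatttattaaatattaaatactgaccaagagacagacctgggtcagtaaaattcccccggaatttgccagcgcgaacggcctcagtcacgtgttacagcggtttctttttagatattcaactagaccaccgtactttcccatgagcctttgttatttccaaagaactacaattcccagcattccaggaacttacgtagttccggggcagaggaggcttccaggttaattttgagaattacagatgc
Zfp994: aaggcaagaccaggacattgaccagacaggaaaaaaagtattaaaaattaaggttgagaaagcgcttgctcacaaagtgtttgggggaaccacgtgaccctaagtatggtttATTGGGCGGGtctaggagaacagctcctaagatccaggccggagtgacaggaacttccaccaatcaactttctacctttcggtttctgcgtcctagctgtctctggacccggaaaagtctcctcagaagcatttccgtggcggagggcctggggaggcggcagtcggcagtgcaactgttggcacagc

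The capitals ended 57 bases before the start in Zfp600, 73 in Zfp982 and 76 in Zfp984, and 36 to 85 bases before it over the 8 genes. The 85 is that of Zfp981, whose matched promoter start lay 12893 bases from the gene start in the counted annotation. It may not be the start of the counted RNA. In the others of the 8 this distance was at most 70 bases. Aligned with Zfp982, the promoter of Zfp600 was identical at 94.3% of 280 bases and that of Zfp984 at 83.2% of 280. That of Zfp933 gave 70.8% of 219 bases, beside a median of 73.8% over 139 aligned bases for 112 members outside the cluster without the letters. Zfp987, which fell, does not have the letters (90.9% of 297 bases aligned with Zfp982). Outside the cluster the letters were in Zfp947 and Zfp994, with log2 changes of -0.47 ± 0.17 and 0.03 ± 0.14, neither called. Within the cluster Zfp979 has the letters and did not pass (-0.69 ± 0.15). So 7 of the 10 members with the letters fell, all 7 in the chromosome 4 cluster, beside 11.2% of all genes. A match in itself is a description of the sequence, and its part in the changes was not tested.

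The chromosome 17 cluster (chr17:21383748-22867134) held 13 members, with calls in both directions. Zfp677 and Zfp946 rose by 2.07 and 1.63 on the log2 scale, Zfp820 fell (-1.09 ± 0.15), and Zfp995 had -0.55 ± 0.13. The fall of Zfp820 was -0.97 without ESC total replicate 3, which ended its call. Total RNA of Zfp677 was at 2.43, 1.76 and 1.57 CPM in ESCs and at 9.15, 7.20 and 8.55 CPM in EpiLCs, while that of Zfp820 was at 38.8, 41.4 and 53.8 CPM in ESCs and at 19.3, 21.6 and 20.4 CPM in EpiLCs. Neither gene had overlapping groups.

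On chromosome 7 the cluster at chr7:41633531-43618285 held 9 members, all with the KRAB-type motif, of which 5 fell (Zfp819, Zfp936, Zfp975, Zfp976 and Zfp977). Its neighbours Zfp719 and Zfp788 had log2 changes of 0.62 ± 0.11 and 0.34 ± 0.09, below the size threshold. Zfp719 was at 24.0, 29.6 and 23.1 CPM in ESCs and at 40.4, 39.7 and 38.9 CPM in EpiLCs, with no overlap, 13.9 kb from the falling Zfp819. The cluster at chr7:127244274-127885996 held 9 members, 3 with the motif. In it Zfp629 and Zfp768 rose and none fell, with Zfp689 (-0.76 ± 0.20) and Zfp688 (-0.47 ± 0.12) lowest. In the chromosome 2 cluster of 3, Zfp931 and Zfp971 fell and Zfp970 had -0.95 ± 0.14, and each of the 3 shared more than 20% of its windows with other genes.

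The second comparison asked whether 4sU RNA moved with total RNA. By calls, 10 (6.71%) rose and 38 (25.5%) fell, beside 11.9% and 13.5% of all genes, with a median of -0.47 beside -0.09. Among the 142 members that reached the level filter in each cell type, 5 rose and 37 fell. In both assays 9 members rose and 25 fell, and no member was called in opposite directions. Spearman's rho between the nascent and total changes was 0.91 over the 149 members, and 0.88 over 12312 protein-coding genes. Of the 81 members with the KRAB-type motif 30 fell and 2 rose in 4sU RNA, and of the 68 others 8 fell and 8 rose. With no size limit 23 were higher and 80 lower, beside 23.7% and 28.8% of all genes. In 85 members (57.0%) every EpiLC 4sU library was below every ESC 4sU library, and in 25 (16.8%) above, beside 34.1% and 26.6% of all genes.

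**Figure D4:**
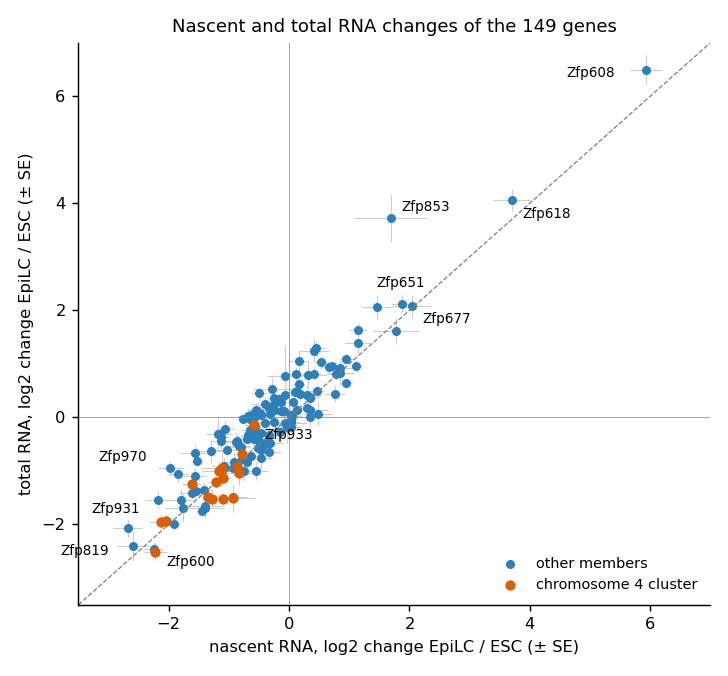
Log2 change from ESCs to EpiLCs in 4sU RNA (x axis) and total RNA (y axis) of the 149 members, each ± SE, with the 16 genes of the chromosome 4 cluster in orange and the line of equal change dashed. Zfp608 is at 5.92 and 6.50, and Zfp853 is the point farthest above the line, at 1.69 and 3.72.

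Zfp608 had the largest nascent rise, from 2.66, 2.15 and 2.44 CPM to 164, 143 and 149 CPM (5.92 ± 0.25). Zfp618 (3.70 ± 0.31), Zfp677 (2.03 ± 0.32), Zfp651 (1.87 ± 0.18) and Zfp711 (1.78 ± 0.38) followed, and of these 5 genes Zfp651 alone did not pass the level filter through EpiLC libraries only. Zfp853, which also passed through EpiLC libraries only, rose by 1.69 ± 0.61 on 5 to 11 reads per EpiLC library. That call was lost in 4 of the alternatives that leave out 1 library, ESC 4sU replicate 1 or 2 or EpiLC 4sU replicate 2 or 3, where its log2 change was 1.19 at the lowest over all alternatives.

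Zfp931 had the largest nascent fall, from 25.8, 32.0 and 25.8 CPM to 3.30, 4.03 and 6.23 CPM (-2.68 ± 0.24). Zfp819 (-2.59 ± 0.27), Zfp977 (-2.25 ± 0.16), Zfp600 (-2.22 ± 0.19) and Zfp971 (-2.18 ± 0.21) were next, and none of these had overlapping cell types. In the chromosome 4 cluster all 16 nascent changes were below 0 (median -1.14), as in 55.3% of all genes. Of the 16, 11 fell (13.5% of all genes did), or 7 without EpiLC 4sU replicate 1. Zfp993, among the 11, and Zfp987, not called, passed the level filter only through ESC libraries. The cluster's summed 4sU RNA came to 1293 ± 209 CPM over the ESC libraries and to 558 ± 59.6 CPM over the EpiLC libraries (SD, n = 3), 2.31-fold lower beside 2.38-fold in total RNA.

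A further 13 members fell in 4sU RNA without a call in total RNA. Zfp704 was at 245, 208 and 206 CPM in ESC 4sU and at 79.2, 75.9 and 72.1 CPM in EpiLC 4sU (-1.53 ± 0.10), and in total RNA it had -0.81 ± 0.09. Zfp750, a regulator of epidermal differentiation, fell in 4sU RNA (-1.17 ± 0.21) at a total RNA level of 1.04 to 2.09 CPM. Zfp827, a telomere and NuRD-binding protein, was the one member that rose in 4sU RNA alone (1.12 ± 0.10, with 0.95 ± 0.10 in total RNA). Calls in one assay and not in the other do not show that the assays differed, which is what the interaction tests.

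The third comparison asked whether mRNA stability changed, as the interaction of cell type and assay (the total RNA change minus the nascent change). Of the members, 1 of 149 (0.671%) passed, beside 1.24% of all genes higher and 0.305% lower in EpiLCs. It was Zfp970, on chromosome 2, with an interaction of 1.02 ± 0.25 (limma-voom adjusted p = 0.035). Its log2 ratio of total to 4sU RNA was -0.88, -0.95 and -0.65 in the 3 ESC pairs of same-numbered libraries and 0.34, 0.00 and 0.10 in the 3 EpiLC pairs, without overlap. The call was lost in 14 of 22 alternatives, among them leaving out ESC 4sU replicate 2, ESC total replicate 1 or 2, or any 1 EpiLC library (log2 0.87 to 1.07, largest adjusted p = 0.11), and 57.2% of its windows are shared with other genes.

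At an adjusted p below 0.05 with no size limit, 9 members were higher in stability and 0 lower, beside 2.72% and 1.88% of all genes. They included Zfp704 (0.72 ± 0.13), Zfp609 (0.84 ± 0.20) and Zfp942 (0.73 ± 0.12). The smallest p among negative interactions belonged to Zfp985 (-0.42 ± 0.17), Zfp867 (-0.30 ± 0.13) and Zfp710 (-0.31 ± 0.13), with adjusted p of 0.16, 0.17 and 0.19. Zfp609 passed the size limit without ESC total replicate 3 (1.02), and Zfp853, with an interaction of 2.04 ± 0.76 (adjusted p = 0.13), passed with a replicate block within cell type (1.94, adjusted p = 0.045). The median interaction was 0.20 over the members and 0.11 over all genes, and 0.11 and 0.12 with the GC trend of each library removed. All 13 members of the chromosome 17 cluster lay above 0 (0.03 to 0.77), and 8 of 16 on chromosome 4 did, beside 60.9% of all genes. With the GC trend removed, 14 of the 16 on chromosome 4 lay below 0 (median -0.41). On chromosome 17 Zfp677, Zfp945 and Zfp948 then lay below 0 and the others above. With the GC trend removed, the log2 ratios of total to 4sU RNA of these 3 genes were 1.51, 1.59 and 0.14 in ESCs. In EpiLCs they were 1.23, 1.53 and 0.05. Without the correction the ratios were -0.26, -0.82 and -0.75 in ESCs and -0.22, -0.45 and -0.72 in EpiLCs. The difference between these clusters was not tested.

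Relative stability, the log2 ratio of total to 4sU RNA within a cell type, was low for these genes. A low ratio means that much of a gene's RNA was made within the pulse, on a scale relative to the composition of each library. In ESCs 4 members (2.68%) were above 1 and 61 (40.9%) below -1 with an adjusted p below 0.05, beside 23.7% and 26.8% of all genes. In EpiLCs 5 (3.36%) were above and 51 (34.2%) below, beside 24.2% and 23.3%. Taken per pair of same-numbered libraries, the members' median in ESCs was -0.79 ± 0.06 (SD, n = 3 pairs) and that in EpiLCs -0.57 ± 0.03, beside 0.29 ± 0.01 and 0.36 ± 0.02 for protein-coding genes. The values per pair use a pseudocount of 0.5 CPM. With no size limit, 10 and 108 members passed in ESCs, beside 40.2% and 38.9% of all genes, and 16 and 88 in EpiLCs, beside 41.2% and 34.5%.

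These ratios depended on whether GC content was corrected for. Over the 149 members, Spearman's rho between GC content and the ESC ratio was -0.10, within the 81 with the KRAB-type motif -0.34, within the 68 others 0.04, and over 12312 protein-coding genes 0.15, all across genes. With each library's trend on gene GC content removed, 33 members were above and 42 below in ESCs (median -0.30), and 32 above and 36 below in EpiLCs (median -0.08). The shift lay in the AT-rich class with the KRAB-type motif, whose ESC median went from -0.79 to 0.18. For the chromosome 4 cluster (median GC 36.7%) it went from -0.26 to 1.91. The 65 members with fingers and no motif (median GC 48.7%) had -0.88 without and -0.81 with the correction. So the sign of the median relative stability of the AT-rich class depended on this correction. Between cell types, total RNA gave 16 rises and 35 falls with the trend removed, and more falls than rises in either case.

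**Figure D5:**
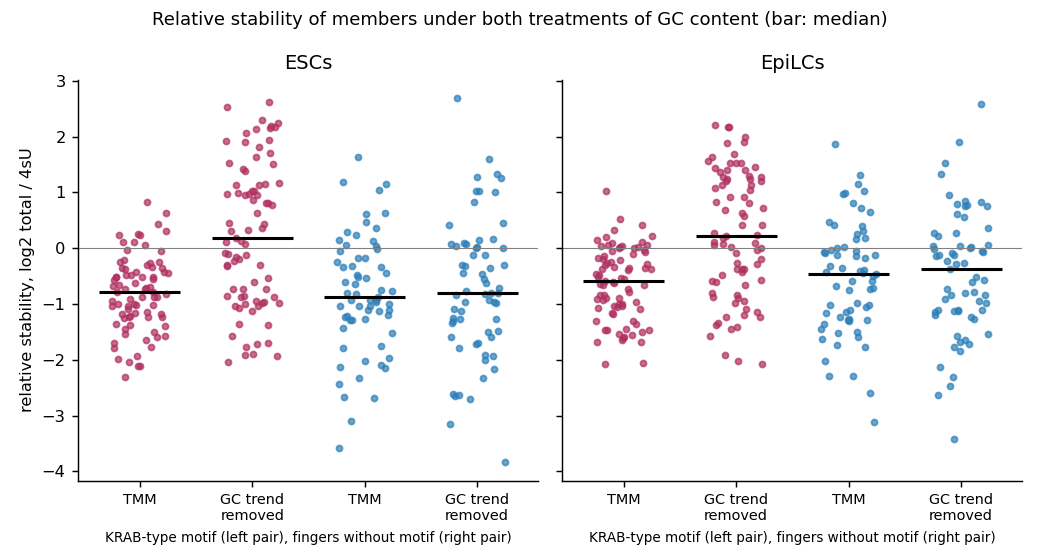
Relative stability (log2 total over 4sU RNA, y axis) of members in ESCs (left) and EpiLCs (right), with TMM scaling and with the GC trend of each library removed, for the 81 members with a KRAB-type motif and the 65 with fingers and no motif; bars are medians. In ESCs the first class moves from a median of -0.79 to 0.18, and the other from -0.88 to -0.81.

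Among members with a mean of at least 10 CPM, Zfp692 had the highest ratio in ESCs (1.63 ± 0.17), followed by Zfp740 (1.18 ± 0.11), Zfp808 (0.82 ± 0.13), Zfp688 (0.64 ± 0.15) and Zfp975 (0.63 ± 0.19). Zfp692 was at 1.57, 1.65 and 1.54 in the 3 ESC pairs and at 1.80, 1.74 and 2.03 in the 3 EpiLC pairs. With the GC trend removed the order changed: Zfp692 was at 1.02, Zfp688 at 0.07, Zfp808 at 2.19, and Zfp981 of the chromosome 4 cluster, at 0.11 before, was at 2.53. The lowest ratios in ESCs were those of Zfp628 (-3.58 ± 0.21), Zfp672 (-3.10 ± 0.12), Zfp770 (-2.69 ± 0.12), Zfp612 (-2.67 ± 0.19) and Zfp609 (-2.43 ± 0.15).

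Zfp628 was at -2.83, -3.66 and -3.99 in the ESC pairs and at -2.99, -3.09 and -2.93 in the EpiLC pairs, so the cell types overlapped. Its total RNA was at 5.56, 4.58 and 3.64 CPM in ESCs against 42.7, 63.5 and 65.1 CPM in 4sU RNA. With the GC trend removed Zfp628 was at -3.84, and Zfp770, an AT-rich gene (39.1% GC), moved from -2.69 to -1.27. Zfp692 and Zfp672 are neighbours on chromosome 11 and stood near opposite ends of this range.

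The Zfp genes numbered under 600 were counted beside the members. Of 181, 11 (6.08%) rose and 20 (11%) fell in total RNA, with a median of -0.05, beside 16.3% and 11.2% of all genes. In 4sU RNA 11 (6.08%) rose and 26 (14.4%) fell (median -0.26), beside 11.9% and 13.5% of all genes. Their relative stability in ESCs had a median of -0.88, near the -0.82 of the members on the same fit. Of the 181, 83 were below -1, beside 26.8% of all genes. A KRAB-type motif was found in 32.6% of them and in 54.4% of the members.

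The cofactors through which KRAB proteins act were read from a list of 28 genes, all of which passed the filter. In total RNA 2 rose and 3 fell, with a median of -0.20 (all genes 16.3%, 11.2% and 0.02). Trim28, the KRAB corepressor itself, had a log2 change of -0.62 ± 0.08 (adjusted p = 1.1e-05, below the size threshold), and Setdb1, the methyltransferase it recruits, had -0.25 ± 0.08. The falls were Uhrf1, which brings DNA methylation to new strands (-1.24 ± 0.06), Fam208a, the TASOR subunit of the HUSH silencing complex (-1.10 ± 0.12), and Morc3 (-1.05 ± 0.09). The rises were Pphln1, another HUSH subunit (2.45 ± 0.11), and the histone methyltransferase gene Suv39h1 (1.60 ± 0.09). In 4sU RNA Pphln1 alone passed (2.46 ± 0.14), beside 11.9% of all genes higher and 13.5% lower. No gene of the list passed for stability, beside 1.24% and 0.305%. With no size limit 14 of the 28 passed in 4sU RNA, beside 23.7% and 28.8%. For stability 6 did, beside 2.72% and 1.88%. Uhrf1 (-0.63), Hdac1 (-0.69), Daxx (-0.67), Mta2 (-0.60) and Dnmt1 (-0.46) were lower in EpiLCs, and Suv39h1 (0.61) was higher.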

How the data were processed

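The unit deposited is the raw count of reads per gene, and the authors produced it from stranded single-end reads. Adapters were trimmed with cutadapt 1.14, reads were aligned uniquely to mm10 with STAR 2.5.3a, and exon reads of GENCODE M14 genes were summed with featureCounts 1.5.3. Spike-in entries had 0 reads. GENCODE M21 supplied symbols, GC content and coding sequences, and 99.6% of the deposited IDs matched it.

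Genes past the level filter of 3 CPM in 3 libraries entered 1 linear model of cell type and assay over all 12 libraries with limma-voom (limma 3.58.1, TMM scaling from edgeR 4.0.16, R 4.3.3), following the methods of the study. Benjamini-Hochberg adjusted p-values run over all 14731 genes, and a call needed an adjusted p under 0.05 and an absolute log2 change over 1. Values in CPM are TMM-scaled. The script was tested on simulated data. The study calls its replicates biological, without saying here whether they were separate cultures, so p-values measure the spread between these libraries, and reads had no molecular identifiers. Ratios per pair set a 4sU library against the total library with the same cell type and number. Per the labels, RNA was divided after extraction, without a statement that the numbers mark the parts.

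Fingers (C-X2-4-C-X12-H-X3-5-H) and the KRAB-type motif were searched in translated GENCODE coding sequences, in place of the RefSeq proteins planned; the motif was sought in the first 200 residues. Windows of 50 bases shared with other genes were counted over annotated transcripts. Promoters were matched by symbol and position (124 members).

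Same-numbered 4sU and total libraries deviated together in ESCs (Pearson r 0.213, 0.368 and 0.462 across genes) and hardly in EpiLCs (0.0916, 0.0501 and 0.023). The weak values in EpiLCs do not show that those libraries were unpaired, so ratios per EpiLC pair rest on the number alone.

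The members and lists were chosen with earlier results of these data known. Genes were named by rule: the 10 largest called rises and falls for mRNA and 5 for nascent RNA, called stability changes or otherwise the 3 smallest p, the 5 highest and lowest relative stabilities in ESCs at a mean of 10 CPM, the 2 largest rises and falls in the 4 largest clusters, genes with a known role, and the 5 highest per kb. Others were named after their values were seen. Alternatives covered DESeq2 1.42.0, edgeR's test, other scaling, no filter, GC trends, replicate blocks and left-out libraries.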

Additional observations from a re-analysis of the deposited data

Results flagged for a closer look

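Zfp970 differed in the ratio of total to 4sU RNA between the cell types by the interaction term of the model, 1.02 ± 0.25 on the log2 scale (limma-voom adjusted p = 0.035, ratios without overlap in 3 of 3 ESC and 3 of 3 EpiLC pairs of same-numbered libraries). Its total RNA was at 9.91, 11.3 and 11.9 CPM in ESCs and at 5.80, 5.31 and 5.77 CPM in EpiLCs, and its 4sU RNA fell by 1.97. It was the one member of 149 (0.671%) past this test, beside 1.24% of all genes higher and 0.305% lower. The call was lost in 14 of 22 alternatives. Groups of 3 libraries were not tested for single outlying values.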

How the results depend on the processing

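The counts given were 14 members higher and 28 lower for mRNA, 10 and 38 for nascent RNA, 1 and 0 for stability, 4 and 61 for relative stability in ESCs and 5 and 51 in EpiLCs. The stability call was 0 with median-of-ratios scaling, without the filter on low counts, with DESeq2 and with the GC trend removed, and 2 with library totals alone. Relative stability above the threshold counted 3 members in EpiLCs with median-of-ratios scaling, 2 with DESeq2, 1 in ESCs and 2 in EpiLCs with library totals, and 33 and 32 with the GC trend removed. With the adjusted p alone, counts were 39 and 65 for mRNA, 23 and 80 for nascent RNA, 9 for stability, and 10 and 108 in ESCs and 16 and 88 in EpiLCs for relative stability. An alternative chosen after seeing the data kept the 114 members with at most 20% of windows shared. In mRNA 14 (12.3%) rose and 12 (10.5%) fell, beside 16.3% and 11.2% of all genes. This turned the balance of the calls, but with the adjusted p alone 36 were higher and 41 lower. In nascent RNA 10 (8.77%) rose and 21 (18.4%) fell, beside 11.9% and 13.5% of all genes.

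With the replicate block, counts were 14 and 29 for mRNA, 10 and 38 for nascent RNA, 1 and 0 for stability, 4 and 63 in ESCs and 5 and 52 in EpiLCs. The block within cell type gave 2 for stability (Zfp970 and Zfp853), and the block with the GC trend removed gave 0, 33 and 32, as the GC correction did without the block. Without ESC replicate 3 of both assays, 3 members passed for stability. Leaving out 1 library gave 12 to 16 and 27 to 31 for mRNA, 9 to 12 and 32 to 39 for nascent RNA, 0 to 4 for stability (4 without ESC total replicate 3), 3 to 4 and 59 to 64 in ESCs, and 2 (without EpiLC 4sU replicate 1) to 7 (without EpiLC 4sU replicate 2) and 46 to 57 in EpiLCs. Calls held in all 22 alternatives for 34 of 42 members in mRNA, 39 of 48 in nascent RNA and 0 of 1 in stability.

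Signs turned for uncalled mRNA changes. Zfp932 was at -0.015 without the filter, -0.23 with the GC trend removed, -0.22 with the block added, -0.072 without ESC replicate 3 of both assays, and -0.072 to 0.12 with 1 library left out. Zfp994 was at -0.028, -0.26, -0.25 and -0.012 under the first 4 of these settings, and -0.047 to 0.094 with 1 library left out. Zfp628 was at -0.11 and -0.10 and Zfp770 at -0.075 and -0.073 with the GC trend removed, without and with the block. The causes were not tested. Depth limits low genes most, such as Zfp853 with 1 to 11 reads per 4sU library.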
